A study of Mus musculus with 16 samples.

Results

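The integrated stress response genes described here are 10 genes of the ATF4 pathway, *Atf4*, *Atf3*, *Atf5*, *Ddit3*, *Trib3*, *Ppp1r15a*, *Chac1*, *Sesn2*, *Asns* and *Psat1*. They were chosen by name, with earlier results of these data known, from the 16707 genes of the deposited log2 CPM table, which holds all 10. Shares over all genes are therefore given for scale and are not an independent test of the set. Primary astrocytes, selected from pup brains on beads against ACSA-2, a surface antigen of astrocytes, came from WT C57BL6J mice and from NLRX1-/- mice (*Nlrx1*-/-), which lack NLRX1, a mitochondrial member of the NOD-like receptor family. The cultures grew for about 10 days in serum-free medium that contained N-acetyl cysteine and heparin-binding EGF, and all 4 groups shared these conditions. Each of the 4 biological replicates of a genotype, called litters here after the design formula of the paper, gave a vehicle well and a well treated for 24 h with 500 ng/mL lipopolysaccharide (LPS) and 10 ng/mL IFNγ. The 16 libraries thus form 4 groups of 4, WT vehicle, WT LPS + IFNγ, *Nlrx1*-/- vehicle and *Nlrx1*-/- LPS + IFNγ. The labels give the pups' age as 6 days and the vehicle as H2O, whereas the text and a legend of the paper also give a younger age and PBS.

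In the integrated stress response, the kinases PERK, PKR, GCN2 and HRI phosphorylate the initiation factor eIF2α, which lowers general protein synthesis and at the same time favours translation of the *Atf4* mRNA. The ATF4 protein then pairs with C/EBP and related factors and switches on genes for amino acid synthesis and transport, tRNA charging and stress control. Because ATF4 is regulated largely at translation and only poly-A RNA was sequenced, the values below are mRNA levels and not pathway activity.

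Among the 10 genes, 5 rose after LPS + IFNγ in WT litters and 8 in *Nlrx1*-/- litters, against 23.7% and 25.3% of the 16066 genes tested. Under LPS + IFNγ, edgeR called 6 of them higher in *Nlrx1*-/- than in WT astrocytes, against 2.65% of genes, with *Asns* at 4.35-fold, *Chac1* at 7.04-fold and *Trib3* at 9.49-fold. The count of 6 was 1 in limma-voom, and it was 0 when any of 5 of the 8 litters was left out. The elevation was uneven among the 4 *Nlrx1*-/- litters. Litters 2 and 4 held the highest levels of all 10 genes under LPS + IFNγ, above every WT litter, and litter 3 lay above every WT litter for 0 of 10. With all litters, edgeR called 0 members in the test of the difference between the responses.

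The promoters of these genes are shown because the ATF4 partner motif is known from some of them. The motif searched was TGATGNAA, the core of the C/EBP-ATF response element, on both strands, in the window from 250 bases before to 50 bases after the start of each gene in RefSeq (table build GRCm38.p6, windows placed on GRCm39 by exact match). It was found in 4 of the 10 genes, *Asns*, *Atf3*, *Chac1* and *Trib3*, against 4.5% of 27025 genes and 4.0% of 32851 windows. The cAMP response element TGACGTCA, a related ATF motif, was found in *Ppp1r15a* alone, against 2.0% of genes and 1.8% of windows. The stretches below run 5′ to 3′ on the strand of the gene, with the motif in capitals. In *Atf3* and *Chac1* it is read on the other strand, so the letters shown are TTGCATCA.
Asns, chr6:7693210-7693262, minus strand: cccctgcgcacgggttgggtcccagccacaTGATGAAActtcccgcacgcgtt
Atf3, chr1:190915603-190915670, minus strand: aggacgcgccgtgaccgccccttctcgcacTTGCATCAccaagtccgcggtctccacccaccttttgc
Chac1, chr2:119181500-119181567, plus strand: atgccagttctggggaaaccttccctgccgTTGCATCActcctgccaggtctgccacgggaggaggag
Ppp1r15a, chr7:45175693-45175734, minus strand: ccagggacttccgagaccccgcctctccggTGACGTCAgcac
The motif began 23 bases before the start in *Asns*, 110 in *Atf3*, 193 in *Chac1* and 12 in *Ppp1r15a*. In *Trib3* it lay between 14 and 21 bases after the start, as TTACATCA. The windows of *Atf4*, *Atf5*, *Ddit3*, *Sesn2* and *Psat1* held neither word, which concerns these letters in these windows only.

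A library held 27259420 to 43752903 read pairs assigned to transcripts. *Nlrx1*, the targeted gene, was at 4.08 to 4.44 log2 CPM in the 8 WT libraries and at 1.09 to 2.96 in the 8 *Nlrx1*-/- libraries, without overlap, and the removed part of the gene is not named in the paper's text. All 8 astrocyte markers were detected, with a summed level of 4490 to 9940 CPM. Of 9 microglia and macrophage markers 1 passed the count filter, and their summed level was 0.128 to 1.83 CPM. The marker that passed was *P2ry12*, at 0.0512 to 1.66 CPM, and it was called higher after LPS + IFNγ in *Nlrx1*-/- litters. *Aif1* and *Tmem119* stayed at or below 0.13 and 0.147 CPM. Neuronal markers summed to 802 to 1060 CPM, most of it *Map2*, oligodendrocyte lineage markers to 530 to 1170 CPM, ependymal markers to 67.0 to 259 CPM and endothelial markers to 0.651 to 10.6 CPM. In these bulk samples, fewer cells of a type and less RNA per cell cannot be told apart.

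The marker sums were not even over the *Nlrx1*-/- litters. Astrocyte markers summed to 4490 and 4500 CPM in litters 2 and 4 under LPS + IFNγ, against 4960 in litter 1 and 6160 in litter 3. WT litters under LPS + IFNγ were at 5270 to 7870 CPM, above *Nlrx1*-/- litters 1, 2 and 4. There edgeR called 2 of the 8 astrocyte markers lower in *Nlrx1*-/- astrocytes and 0 higher, against 2.38% and 2.65% of genes. In vehicle the *Nlrx1*-/- litters were at 6340, 4720, 7750 and 5340 CPM, and WT litters at 6330 to 9940 CPM. The fibroblast and pericyte markers summed to 66.0 and 50.0 CPM in the 2 libraries of litter 3 and to between 12.1 and 38.6 CPM in the other libraries. The part of these differences in the results below was not tested.

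**Figure D1:**
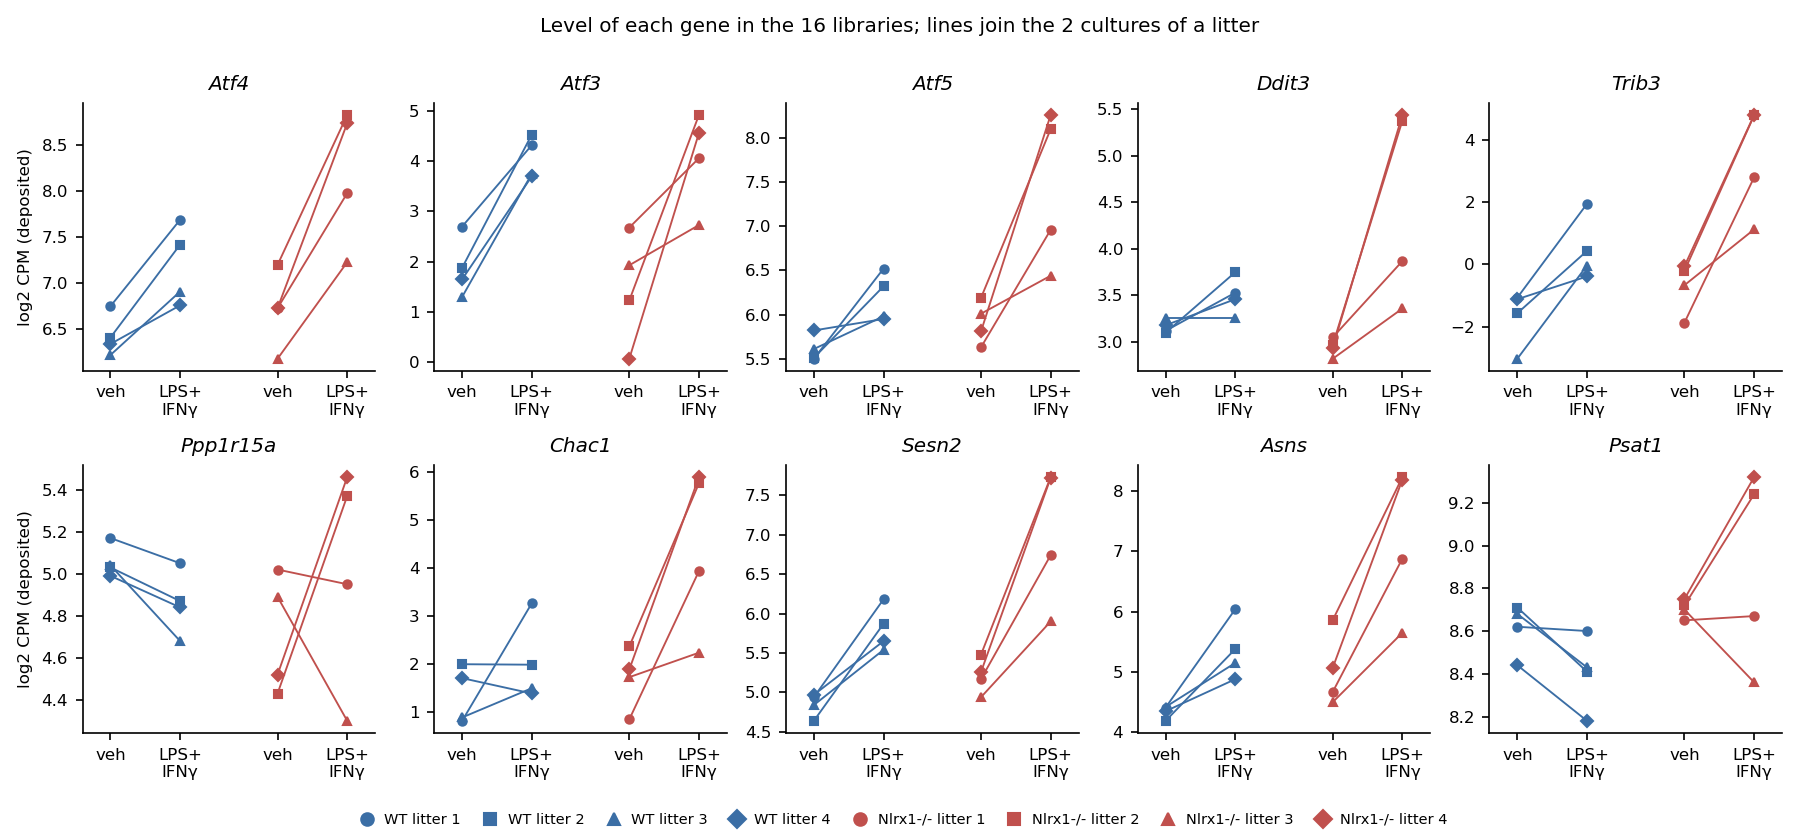
Log2 CPM (y axis, a separate scale in each panel) of the 10 genes in all 16 libraries, with vehicle and LPS + IFNγ on the x axis. Each symbol is a library and each line joins the cultures of a litter, WT in blue and *Nlrx1*-/- in red. Litters 2 and 4 (squares and diamonds) end highest in *Nlrx1*-/- astrocytes, whereas litter 3 (triangles) ends above the WT range for 0 of the 10 genes and below it for *Atf3* and *Ppp1r15a*.

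*Atf4* encodes the transcription factor at the centre of the response (chromosome 15, 80139372 to 80141745, plus strand, GENCODE M39 on GRCm39). In WT litters 1 to 4 its level was 6.75, 6.41, 6.22 and 6.34 log2 CPM in vehicle and 7.69, 7.42, 6.91 and 6.76 after LPS + IFNγ. In *Nlrx1*-/- litters it was 6.73, 7.20, 6.18 and 6.73 in vehicle and 7.98, 8.83, 7.23 and 8.74 after LPS + IFNγ. *Atf4* rose in every litter of both genotypes, and its response in each *Nlrx1*-/- litter, from 1.05 to 2.00 log2 units, was above that of each WT litter, from 0.41 to 1.01. It was the only member whose responses did not overlap between the genotypes, against 3.14% of the 16031 genes compared. The response was 0.76 on the log2 scale in WT (standard error 0.14, edgeR adjusted p = 0.00126) and 1.47 in *Nlrx1*-/- litters (standard error 0.14, edgeR adjusted p = 1.2e-05). The difference between them was 0.71 (standard error 0.19), with an edgeR adjusted p of 0.223 and a DESeq2 adjusted p of 0.0155. The levels under LPS + IFNγ did overlap, because *Nlrx1*-/- litter 3, at 7.23, lay below WT litters 1 and 2. *Nlrx1*-/- against WT was 1.06 on the log2 scale (standard error 0.30, edgeR adjusted p = 0.0522), just outside the threshold of 0.05, and DESeq2 gave an adjusted p of 0.00582. With 1 litter left out in turn, *Atf4* was called in this comparison without WT litter 1 (1.25, adjusted p = 0.0378) or *Nlrx1*-/- litter 3 (1.30, adjusted p = 0.0045).

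*Atf3*, *Atf5* and *Ddit3* encode further transcription factors of the bZIP family that the pathway induces. *Atf3* (chromosome 1, 190902493 to 190950241, minus strand) is an early stress and inflammatory gene, and it behaved unlike *Atf4*. Within WT litters the treated minus the vehicle level was 1.62, 2.65, 2.46 and 2.05 log2 units, and within *Nlrx1*-/- litters 1.38, 3.69, 0.79 and 4.49. It rose in both genotypes, by 4.56-fold in WT (log2 2.19, standard error 0.50, edgeR adjusted p = 0.00464) and 5.70-fold in *Nlrx1*-/- litters (log2 2.51, standard error 0.53, edgeR adjusted p = 0.00272). Under LPS + IFNγ the WT litters ranged from 3.70 to 4.53 log2 CPM and the *Nlrx1*-/- litters from 2.73 to 4.92, so the WT range lay inside that of *Nlrx1*-/- litters. *Nlrx1*-/- against WT was 0.13 (standard error 0.48, edgeR adjusted p = 0.887), and limma-voom put it at -0.06, so its sign depended on the method.

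*Atf5* (chromosome 7, 44461680 to 44466082, minus strand) encodes a factor that, like ATF4, is controlled at translation and is linked to the mitochondrial stress response. It was at 5.50, 5.51, 5.61 and 5.82 log2 CPM in WT vehicle and at 6.52, 6.32, 5.98 and 5.95 in WT LPS + IFNγ. *Nlrx1*-/- litters were at 5.63, 6.19, 6.01 and 5.81 in vehicle and 6.96, 8.10, 6.44 and 8.26 after LPS + IFNγ. All *Nlrx1*-/- litters but litter 3 exceeded the highest WT litter under LPS + IFNγ. *Atf5* rose in *Nlrx1*-/- litters (log2 1.52, standard error 0.26, edgeR adjusted p = 0.000791), and in WT litters its change of 0.57 was not called (standard error 0.26, edgeR adjusted p = 0.0982), although it was called without *Nlrx1*-/- litter 3 or litter 4. Under LPS + IFNγ it was 2.64-fold higher in *Nlrx1*-/- astrocytes (log2 1.40, standard error 0.30, edgeR adjusted p = 0.0396). Between 91.0% and 100.0% of its TPM was placed on the RefSeq record NR_033136, which is non-coding by its prefix, and the gene total was used here.

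*Ddit3* (chromosome 10, 127124268 to 127132163, plus strand) encodes CHOP, which is tied to cell death under lasting stress. GENCODE M39 also lists a shorter entry of this symbol from 127126698 to 127129622. Its level was 3.12, 3.10, 3.26 and 3.18 log2 CPM in WT vehicle and 3.53, 3.75, 3.26 and 3.46 in WT LPS + IFNγ. In *Nlrx1*-/- litters it was 3.05, 2.97, 2.82 and 2.94 in vehicle and 3.87, 5.38, 3.36 and 5.44 after LPS + IFNγ. The high values were those of litters 2 and 4. In vehicle all *Nlrx1*-/- libraries lay below all WT libraries, as they did for 3.49% of genes, and the difference of -0.23 was not called (standard error 0.34, edgeR adjusted p = 0.747). *Ddit3* rose by 2.98-fold in *Nlrx1*-/- litters (log2 1.58, standard error 0.31, edgeR adjusted p = 0.00161), whereas the WT value of 0.32 was not called (standard error 0.30, edgeR adjusted p = 0.408). The difference between the responses was 1.25 (standard error 0.42), with an adjusted p of 0.232 in edgeR and 0.0485 in DESeq2. Under LPS + IFNγ it was 2.39-fold higher in *Nlrx1*-/- astrocytes (log2 1.25, standard error 0.34, edgeR adjusted p = 0.0474). Without litters 2 and 4 the difference was 0.12 on the log2 scale (edgeR adjusted p = 0.812). These litters held the highest levels and were left out only after the data were seen, so a lower value was built into that choice.

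*Trib3* and *Ppp1r15a* encode feedback regulators. TRIB3 (chromosome 2, 152179337 to 152191958, minus strand) is a pseudokinase that binds and restrains ATF4. *Trib3* was the lowest member, with 3 to 957 read pairs in a library. In WT litters it was at -1.07, -1.57, -3.03 and -1.12 log2 CPM in vehicle and at 1.94, 0.43, -0.04 and -0.39 after LPS + IFNγ. In *Nlrx1*-/- litters it was at -1.87, -0.21, -0.67 and -0.06 in vehicle and at 2.79, 4.78, 1.12 and 4.79 after LPS + IFNγ. It increased in all 8 litters. The fitted rise was 5.18-fold in WT (log2 2.37, standard error 0.60, edgeR adjusted p = 0.00832) and 19.81-fold in *Nlrx1*-/- litters (log2 4.31, standard error 0.54, edgeR adjusted p = 8.4e-05). Under LPS + IFNγ *Trib3* was 9.49-fold higher in *Nlrx1*-/- astrocytes, the largest genotype difference among the 10 genes (log2 3.25, standard error 0.74, edgeR adjusted p = 0.0396).

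*Ppp1r15a* (chromosome 7, 45172340 to 45175692, minus strand) encodes GADD34, which recruits a phosphatase to eIF2α and so ends the response. Its level was 5.17, 5.03, 5.04 and 4.99 log2 CPM in WT vehicle and 5.05, 4.87, 4.68 and 4.84 after LPS + IFNγ. *Nlrx1*-/- litters were at 5.02, 4.43, 4.89 and 4.52 in vehicle and 4.95, 5.37, 4.30 and 5.46 after LPS + IFNγ. Litters 2 and 4 thus held the lowest *Nlrx1*-/- values in vehicle and the highest under LPS + IFNγ. The response was -0.21 in WT (standard error 0.21, edgeR adjusted p = 0.459) and 0.30 in *Nlrx1*-/- litters (standard error 0.21, edgeR adjusted p = 0.275). *Ppp1r15a* was called in no comparison with all litters, but it was called in the *Nlrx1*-/- response without litter 3 (0.58, adjusted p = 0.0178). That response was -0.33 without litters 2 and 4 (adjusted p = 0.0507), which were left out after their high levels were seen.

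*Chac1* and *Sesn2* encode stress effectors. *Chac1* (chromosome 2, 119180757 to 119184866, plus strand) encodes an enzyme that degrades glutathione. Its level was 0.82, 2.00, 0.89 and 1.71 log2 CPM in WT vehicle and 3.27, 1.99, 1.50 and 1.39 after LPS + IFNγ, so the treated well was the higher in WT litters 1 and 3 only. The *Nlrx1*-/- values were 0.85, 2.37, 1.73 and 1.89 in vehicle and 3.94, 5.77, 2.24 and 5.90 after LPS + IFNγ. The WT value of 0.65 was not called (standard error 0.56, edgeR adjusted p = 0.375), and it was 0.07 without WT litter 1. The rise in *Nlrx1*-/- litters was 7.24-fold (log2 2.86, standard error 0.56, edgeR adjusted p = 0.00169). Without litters 2 and 4, left out after their high levels were seen, the value of 1.80 was not called (adjusted p = 0.0713). Under LPS + IFNγ *Chac1* was 7.04-fold higher in *Nlrx1*-/- astrocytes (log2 2.82, standard error 0.65, edgeR adjusted p = 0.0396).

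*Sesn2* (chromosome 4, 132219335 to 132237815, minus strand) encodes sestrin 2, a leucine sensor that restrains mTORC1. Its level was 4.94, 4.64, 4.84 and 4.97 log2 CPM in WT vehicle and 6.18, 5.87, 5.54 and 5.65 after LPS + IFNγ. The *Nlrx1*-/- values were 5.17, 5.48, 4.94 and 5.26 in vehicle and 6.74, 7.73, 5.90 and 7.72 after LPS + IFNγ. *Sesn2* rose in all 8 litters, by 1.93-fold in WT (log2 0.95, standard error 0.21, edgeR adjusted p = 0.00366) and 3.50-fold in *Nlrx1*-/- litters (log2 1.81, standard error 0.21, edgeR adjusted p = 4.87e-05). These responses were called whichever litter was left out. Under LPS + IFNγ it was 2.56-fold higher in *Nlrx1*-/- astrocytes (log2 1.36, standard error 0.29, edgeR adjusted p = 0.0396), a call that held in 3 of 8 fits with 1 litter left out (adjusted p up to 0.15).

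*Asns* and *Psat1* encode enzymes of amino acid synthesis. *Asns* (chromosome 6, 7671667 to 7728461, minus strand) encodes asparagine synthetase, a classical ATF4 target. In WT litters it was at 4.41, 4.19, 4.42 and 4.35 log2 CPM in vehicle and 6.04, 5.38, 5.15 and 4.88 after LPS + IFNγ. In *Nlrx1*-/- litters it was at 4.67, 5.86, 4.50 and 5.07 in vehicle and at 6.88, 8.23, 5.65 and 8.19 after LPS + IFNγ. In vehicle all *Nlrx1*-/- libraries lay above all WT libraries, as they did for 6.22% of genes, and the difference of 0.77 was not called (standard error 0.44, edgeR adjusted p = 0.342). The rise was 2.02-fold in WT (log2 1.02, standard error 0.26, edgeR adjusted p = 0.00907) and 4.64-fold in *Nlrx1*-/- litters (log2 2.21, standard error 0.26, edgeR adjusted p = 5.84e-05). Under LPS + IFNγ *Asns* was 4.35-fold higher in *Nlrx1*-/- astrocytes (log2 2.12, standard error 0.45, edgeR adjusted p = 0.0396).

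*Psat1* (chromosome 19, 15882039 to 15924701, minus strand) encodes phosphoserine aminotransferase of serine synthesis. It was the most abundant member in every group, and its vehicle levels were close together, with 8.44 to 8.71 log2 CPM in WT and 8.65 to 8.75 in *Nlrx1*-/- litters. After LPS + IFNγ it was 8.60, 8.41, 8.43 and 8.18 in WT and 8.67, 9.24, 8.36 and 9.32 in *Nlrx1*-/- litters. The treated level was below that of vehicle in all 4 WT litters and in litter 3 of *Nlrx1*-/-, and above it by 0.52 and 0.57 in *Nlrx1*-/- litters 2 and 4. The responses were not called, at -0.22 in WT (standard error 0.12, edgeR adjusted p = 0.178) and 0.18 in *Nlrx1*-/- litters (standard error 0.12, edgeR adjusted p = 0.252). *Nlrx1*-/- against WT under LPS + IFNγ was 0.53 (standard error 0.16), with an adjusted p of 0.057 in edgeR and 0.0146 in DESeq2.

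On a scale per transcript length, the TPM, the order of the first 3 members was the same in all 4 groups, *Psat1*, *Atf4* and then *Atf5*. In WT vehicle these were at 406 ± 34.1, 122 ± 21.2 and 59.7 ± 6.19 TPM (SD, n = 4), without overlap. *Ppp1r15a* followed at 31.1 ± 2.02 TPM (SD, n = 4). *Ddit3*, *Asns* and *Sesn2*, with means of 25.6, 24.5 and 23.0 TPM, overlapped among themselves but neither *Ppp1r15a* above nor *Atf3* below them, and *Atf3* and *Chac1*, with means of 4.51 and 3.96 TPM, overlapped each other. *Trib3* was last at 0.316 ± 0.178 TPM (SD, n = 4). In *Nlrx1*-/- LPS + IFNγ the means ran from 431 TPM for *Psat1* to 14.4 for *Trib3*, and every pair of neighbours overlapped, because the litters spread so widely. *Atf4*, for example, was at 376 ± 160 TPM and *Asns* at 190 ± 122 TPM (SD, n = 4) in that group.

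**Figure D2:**
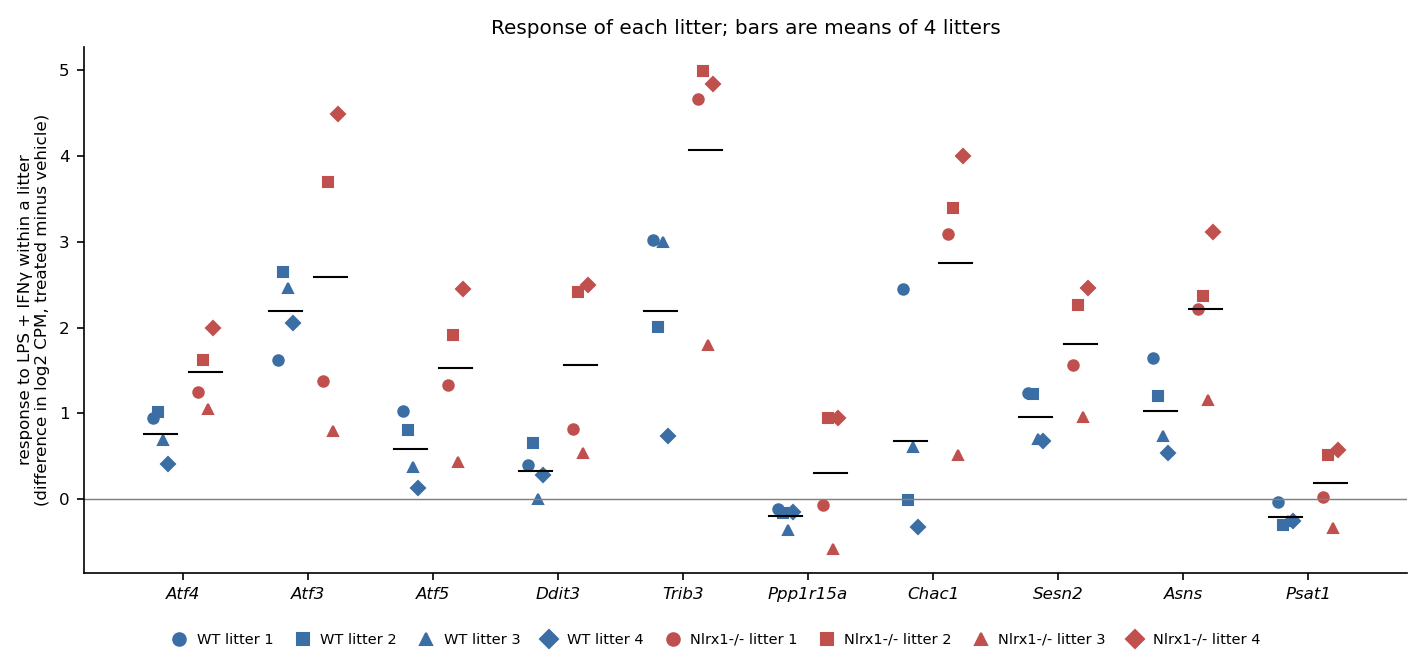
Response to LPS + IFNγ within each litter (y axis, log2 CPM of the treated minus the vehicle culture) for the 10 genes on the x axis, WT in blue and *Nlrx1*-/- in red, with bars at the means of 4 litters. *Nlrx1*-/- litter 3 (red triangles) has the lowest *Nlrx1*-/- response for all 10 genes, and the *Atf4* responses of the genotypes do not overlap.

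The 5 comparisons share libraries, and the *Nlrx1*-/- LPS + IFNγ libraries enter 3 of them, so their values for the members are not independent of each other. The first comparison asked how the pathway responds to LPS + IFNγ within WT litters. *Asns*, *Atf3*, *Atf4*, *Sesn2* and *Trib3* rose, which is 5 of 10 members against 23.7% of the 16066 genes tested. No member fell, against 20.2% of genes. The members had a median log2 change of 0.70, against -0.02 over all genes tested. The median response over the 10 genes was 1.13, 0.91, 0.65 and 0.35 in WT litters 1 to 4. Without litter 1, *Asns* and *Trib3* were no longer called, with adjusted p values of 0.0502 and 0.0551.

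Within *Nlrx1*-/- litters, all members but *Ppp1r15a* and *Psat1* rose, which is 8 of 10 against 25.3% of genes, and 0 fell against 24.2%. The median change was 1.69, against -0.03 over all genes. The litters' median responses were 1.36, 2.31, 0.67 and 2.48, so litter 3 lay within the WT range and the other litters above it. Responses above every WT litter were found for 9 members in litter 1 and 1 member in litter 3, whereas litters 2 and 4 exceeded WT for all 10. Litter 4 had the highest response of the genotype for 8 members and litter 2 for the other two. These 8 calls held with any 1 litter left out. Without litter 3, which had the lowest response for all 10 members, *Ppp1r15a* and *Psat1* were called as well.

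Whether the response differs between the genotypes was tested as an interaction. It was above 0 for all 10 members, from 0.32 for *Atf3* to 2.20 for *Chac1*, with a median of 0.91 against -0.02 over all genes. In edgeR 0 members were called, as were 0.0% of all genes, and at an unadjusted p below 0.05 the response was larger in *Nlrx1*-/- litters for 8 members, against 5.89% of genes. The other two were *Atf3* and *Ppp1r15a*. limma-voom also called 0 members and 0.0% of genes. DESeq2 called *Atf4* and *Ddit3*, of the 9 members for which it gave an adjusted p, against 1.05% of genes. The result turned on *Nlrx1*-/- litter 3. Without it, edgeR called *Asns*, *Atf4*, *Atf5*, *Chac1*, *Sesn2* and *Trib3*, against 0.767% of genes, with differences from 0.85 for *Atf4* to 2.86 for *Chac1*. Litter 3 had the lowest *Nlrx1*-/- response for all 10 members, so larger differences were built into leaving it out. Without litters 2 and 4, an alternative chosen after the data were seen, the differences were between -1.09 for *Atf3* and 1.15 for *Chac1* and 0 members were called.

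In vehicle, 0 members were called in edgeR, as were 0.0% of all genes. *Nlrx1* itself, at -1.70 on the log2 scale (standard error 0.24), was not called either (edgeR adjusted p = 0.0538). DESeq2 (adjusted p = 2.89e-08) and limma-voom (adjusted p = 0.00491) did call it. The 0 calls of edgeR in vehicle therefore do not show equal levels. At an unadjusted p below 0.05 the members counted 0 in either direction, against 11.0% of genes higher and 8.57% lower in *Nlrx1*-/- astrocytes. DESeq2 called 0 members against 5.89% of genes. These fits used a spread per gene shared by all 4 groups. A member's wide spread in *Nlrx1*-/- LPS + IFNγ thus enters its vehicle p value. *Ddit3*, for example, had SDs of 0.07 and 0.10 log2 CPM in WT and *Nlrx1*-/- vehicle but 1.06 in *Nlrx1*-/- LPS + IFNγ. The counts of 0 therefore do not show that the members differed less than other genes. The vehicle differences ran from -0.33 for *Ppp1r15a* to 1.13 for *Trib3* (standard error 0.87, edgeR adjusted p = 0.486), with a median of 0.30 against 0.00 over all genes. *Asns* had the smallest unadjusted p of the members, at 0.0997.

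Under LPS + IFNγ, *Asns*, *Atf5*, *Chac1*, *Ddit3*, *Sesn2* and *Trib3* were higher in *Nlrx1*-/- astrocytes, which is 6 of 10 against 2.65% of genes, and 0 were lower against 2.38%. The median difference was 1.31, against -0.01 over all genes. No member had all *Nlrx1*-/- litters above all WT litters, a pattern 7.30% of genes showed. DESeq2 called 8 members, *Atf4* and *Psat1* in addition, against 9.12% of genes, and limma-voom called *Atf5* alone, against 1.24%. The calls depended on the litters in the fit, for the members and for genes in general. Leaving out WT litter 2, 3 or 4 brought the count to 0, with 0.0%, 0.0% and 0.0% of all genes called higher, and so did leaving out *Nlrx1*-/- litter 2 or 4, with 0.0429% and 0.0123%. The differences themselves moved less. That of *Asns* was 2.10, 2.04 and 1.99 without WT litter 2, 3 or 4 (adjusted p = 0.128, 0.139 and 0.15) and 1.80 and 1.84 without *Nlrx1*-/- litter 2 or 4 (adjusted p = 0.0619 and 0.148). Without *Nlrx1*-/- litter 3 the count was 8, against 9.2% of genes. That litter held the lowest *Nlrx1*-/- levels of the members there, so larger differences were built into leaving it out. Without litters 2 and 4 together it was 0, against 0.00602% of genes, and *Asns* was then at 0.95 (adjusted p = 0.312).

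**Figure D3:**
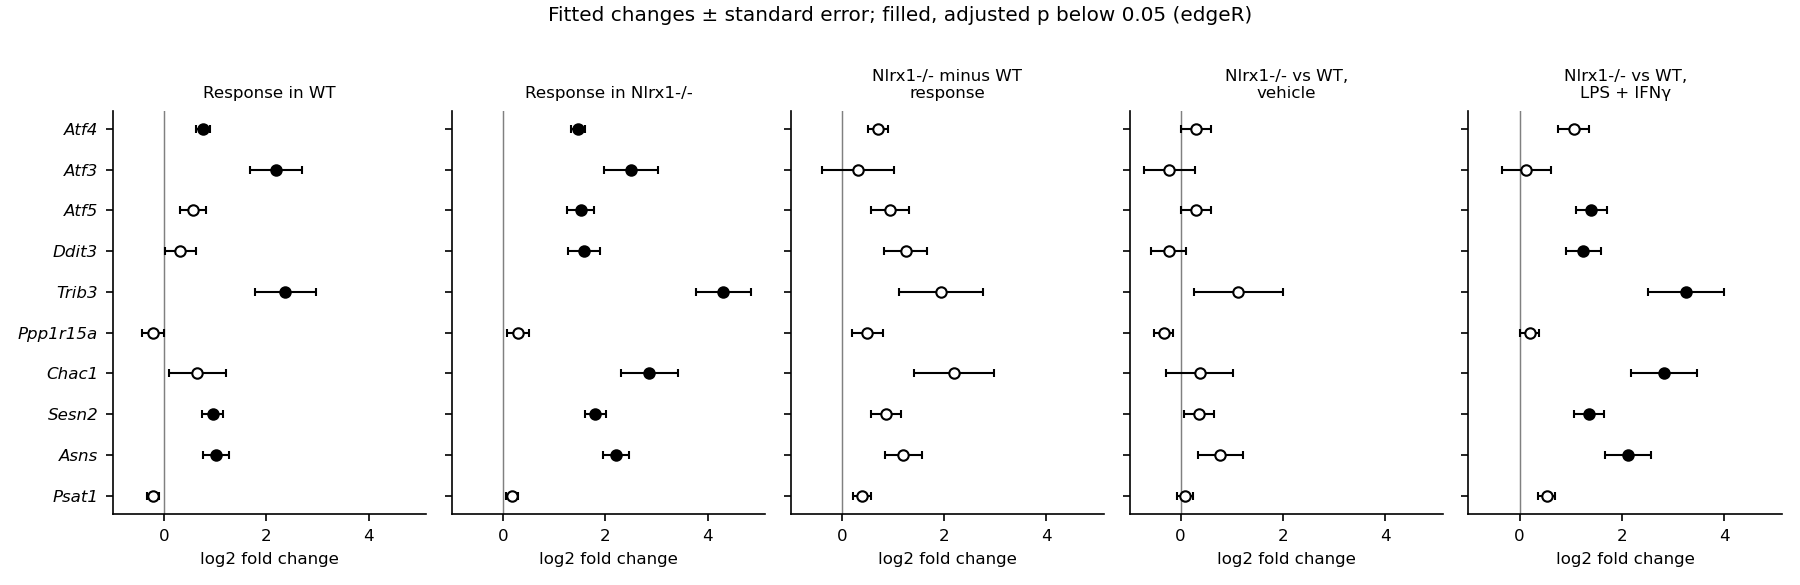
Log2 fold change (x axis) with its standard error for the 10 genes in the 5 comparisons, filled where the edgeR adjusted p was below 0.05. The responses hold 5 filled points in WT and 8 in *Nlrx1*-/- litters, the difference of the responses and the vehicle comparison hold 0, and the LPS + IFNγ comparison holds 6.

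The other genes of the pathway were read from 7 lists, which hold 95 tested genes and were also chosen with earlier results of these data known. Their counts are to be read against all genes tested, of which 23.7% rose and 20.2% fell in WT litters, 25.3% rose and 24.2% fell in *Nlrx1*-/- litters, and 2.65% were called higher and 2.38% lower in *Nlrx1*-/- astrocytes under LPS + IFNγ. In that last comparison edgeR called 34 of the 95, all of them higher. DESeq2 called 48 and limma-voom 12 in either direction, and in each 1 of the 95 was lower at an unadjusted p below 0.05. The shares of all genes called higher were 9.12% in DESeq2 and 1.24% in limma-voom. The counts given per list are those of edgeR. Counts at an unadjusted p below 0.05 under LPS + IFNγ stand without a share of all genes and are given for scale only. Those that lie upstream, the eIF2α kinases and the subunits that act on eIF2α, form the first. Of 12 genes 5 rose and 1 fell in WT litters, and 6 rose and 2 fell in *Nlrx1*-/- litters. *Eif2ak2*, which encodes the interferon-induced kinase PKR, had the largest rise in both, 2.25 in WT (standard error 0.14, edgeR adjusted p = 4.94e-07) and 2.62 in *Nlrx1*-/- litters (standard error 0.14, edgeR adjusted p = 1.61e-07). *Eif2s1*, the gene of eIF2α itself, rose by 0.56 and 0.59 on the log2 scale. *Ppp1r15b*, the constitutive partner of GADD34's phosphatase, rose by 0.57 in *Nlrx1*-/- litters, whereas *Dele1*, which relays mitochondrial stress to HRI, fell by 0.25. The WT litters moved in the same directions, with mean differences in log2 CPM of 0.37 for *Ppp1r15b* and -0.11 for *Dele1*. Between the genotypes under LPS + IFNγ 0 of the 12 were called by edgeR, DESeq2 or limma-voom, 3 were higher at an unadjusted p below 0.05, and *Eif2s1* had the smallest p (0.40, standard error 0.16, edgeR adjusted p = 0.109).

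Among 16 tested genes of other ATF4-linked stress factors, 10 rose and 1 fell in WT litters, 14 rose in *Nlrx1*-/- litters, and 8 were higher in *Nlrx1*-/- than in WT astrocytes under LPS + IFNγ. *Nupr1*, a stress-induced chromatin protein, and *Gdf15*, a secreted stress hormone, led both responses. Both started from low vehicle levels, so the sizes of their rises are uncertain. In vehicle *Nupr1* was at -2.19 to -0.75 log2 CPM in WT and -0.78 to 0.20 in *Nlrx1*-/- litters, and *Gdf15* at -1.74 to -0.42 and 0.13 to 1.67. *Nupr1* rose by 3.55 in WT and 4.31 in *Nlrx1*-/- litters on the log2 scale. Its LPS + IFNγ levels were 1.97, 2.34, 1.56 and 1.61 log2 CPM in WT and 3.20, 4.88, 2.01 and 5.05 in *Nlrx1*-/- litters. *Gdf15* was 2.67 higher in *Nlrx1*-/- astrocytes under LPS + IFNγ (standard error 0.64, edgeR adjusted p = 0.0406), and *Stc2*, which encodes a secreted glycoprotein, was 2.31 higher (standard error 0.52, edgeR adjusted p = 0.0396). *Atf6*, the sensor of another stress arm, fell by 0.31 in WT litters.

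Amino acid transport genes bring in the substrates of protein synthesis. Of 12, 7 rose and 2 fell in WT, 10 rose and 1 fell in *Nlrx1*-/- litters, and 6 were higher in *Nlrx1*-/- astrocytes under LPS + IFNγ. *Slc7a11*, the cystine/glutamate exchanger, rose in both genotypes, by 1.68 and 2.45 on the log2 scale. *Slc7a5*, a leucine transporter, was at 7.79, 7.17, 7.08 and 6.63 log2 CPM in WT LPS + IFNγ and at 8.47, 9.78, 7.53 and 9.71 in *Nlrx1*-/- LPS + IFNγ, a difference of 1.90 (standard error 0.40, edgeR adjusted p = 0.0396). The cationic amino acid transporter genes *Slc7a3* and *Slc7a1* were 2.54 and 1.93 higher. *Slc38a1*, a glutamine transporter, fell in both, by 0.78 in WT and by 0.74 in *Nlrx1*-/- litters.

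Of 15 enzymes of serine, glycine, proline and folate metabolism, 4 rose and 2 fell in WT, 9 rose and 2 fell in *Nlrx1*-/- litters, and 8 were higher in *Nlrx1*-/- astrocytes under LPS + IFNγ. The WT counts are close to the shares over all genes. *Mthfd2*, a mitochondrial folate enzyme, rose by 2.02 in WT and 2.38 in *Nlrx1*-/- litters. *Cth*, which makes cysteine from cystathionine, was 2.06 higher in *Nlrx1*-/- astrocytes (standard error 0.54, edgeR adjusted p = 0.0466), and *Shmt2*, which converts serine to glycine, was 1.25 higher (standard error 0.25, edgeR adjusted p = 0.0396). *Phgdh*, the entry enzyme of serine synthesis upstream of *Psat1*, fell by 0.55 in WT litters, and *Gpt2*, an alanine aminotransferase, fell in both, by 0.90 in WT and by 0.97 in *Nlrx1*-/- litters.

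Cytosolic tRNA synthetase genes had the highest share of called genes among the lists under LPS + IFNγ, where edgeR called 11 of 13 higher in *Nlrx1*-/- astrocytes, DESeq2 12 and limma-voom 7. In WT litters 10 rose, and in *Nlrx1*-/- litters all 13. *Iars*, the isoleucine enzyme, was at 6.77, 6.40, 6.23 and 6.03 log2 CPM in WT LPS + IFNγ and at 7.24, 8.04, 6.73 and 8.02 in *Nlrx1*-/- LPS + IFNγ (1.21, standard error 0.25, edgeR adjusted p = 0.0396). *Wars*, the tryptophan enzyme, which is induced by interferon, rose most, by 3.29 in WT and 3.07 in *Nlrx1*-/- litters.

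ATF6 and XBP1 run another arm of the unfolded protein response, that of the chaperones. Of 17 endoplasmic reticulum chaperones and degradation factors, 16 rose in WT and 16 in *Nlrx1*-/- litters, and 0 were called between the genotypes under LPS + IFNγ in edgeR, with 4 higher at an unadjusted p below 0.05. limma-voom called 0 and DESeq2 2 of them there, against 1.24% and 9.12% of all genes called higher. Without *Nlrx1*-/- litter 3 edgeR called 3, against 9.2% of genes called higher. *Edem1* rose by 2.24 and 1.94, *Sdf2l1* by 2.15 and 1.68, and *Creld2* by 1.50 and 1.60 in WT and *Nlrx1*-/- litters. *Hyou1* had the smallest p between the genotypes (0.40, standard error 0.13, edgeR adjusted p = 0.0696). The median response of this list was 1.03, 1.03, 0.96 and 0.94 in WT litters and 0.90, 1.06, 0.93 and 1.24 in *Nlrx1*-/- litters, so litters 2 and 3 of *Nlrx1*-/- lay close together. For the tRNA synthetases the same medians were 0.93, 0.76, 0.58 and 0.45 in WT litters and 1.20, 1.44, 0.63 and 1.84 in *Nlrx1*-/- litters. Mitochondrial chaperones and proteases, a readout of mitochondrial protein stress, rose for 7 and fell for 1 of 10 in WT and rose for 8 in *Nlrx1*-/- litters. Of these only *Hspa9*, the mitochondrial HSP70, was called higher in *Nlrx1*-/- astrocytes under LPS + IFNγ (0.80, standard error 0.20, edgeR adjusted p = 0.0413). At an unadjusted p below 0.05, 5 of the 10 were higher there.

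Under LPS + IFNγ the median difference between the genotypes was 0.76 for the other stress factors, 0.61 for the transporters, 1.01 for the metabolic enzymes and 1.00 for the tRNA synthetases, against 0.10 for the upstream genes, 0.10 for the chaperones, 0.19 for the mitochondrial list and -0.01 for all genes tested. In the interaction 0 of the 95 list genes were called in edgeR and in limma-voom, as were 0.0% of all genes. DESeq2 called 6 in either direction, and it called 1.05% of all genes larger in *Nlrx1*-/- litters. At an unadjusted p below 0.05 the edgeR response was larger in *Nlrx1*-/- litters for 30, against 5.89% of genes, and smaller for 3. In vehicle 0 were called in edgeR and in limma-voom and 9 in DESeq2, against 0.0% of all genes in edgeR and 5.89% in DESeq2. At an unadjusted p below 0.05 in edgeR 23 were higher and 7 lower in *Nlrx1*-/- astrocytes, against 11.0% and 8.57% of genes. The lower count is near its share over all genes. In the interaction *Slc38a2*, a glutamine transporter gene, had an unadjusted p of 0.004 (0.64, edgeR adjusted p = 0.223), *Iars* one of 0.00433 and *Cebpb* one of 0.0054. Without *Nlrx1*-/- litter 3 the edgeR interaction called 8 tRNA synthetase genes, 4 of the metabolic enzymes, 4 of the other stress factors and 3 transporters. It called 0 of the upstream genes, of the chaperones and of the mitochondrial list, and 0.767% of all genes were called larger. In the lists with calls litter 3 had the lowest *Nlrx1*-/- median response, so larger differences were built into leaving it out. Without *Nlrx1*-/- litters 2 and 4, 0 genes of the 7 lists were called higher under LPS + IFNγ, against 0.00602% of all genes.

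**Figure D4:**
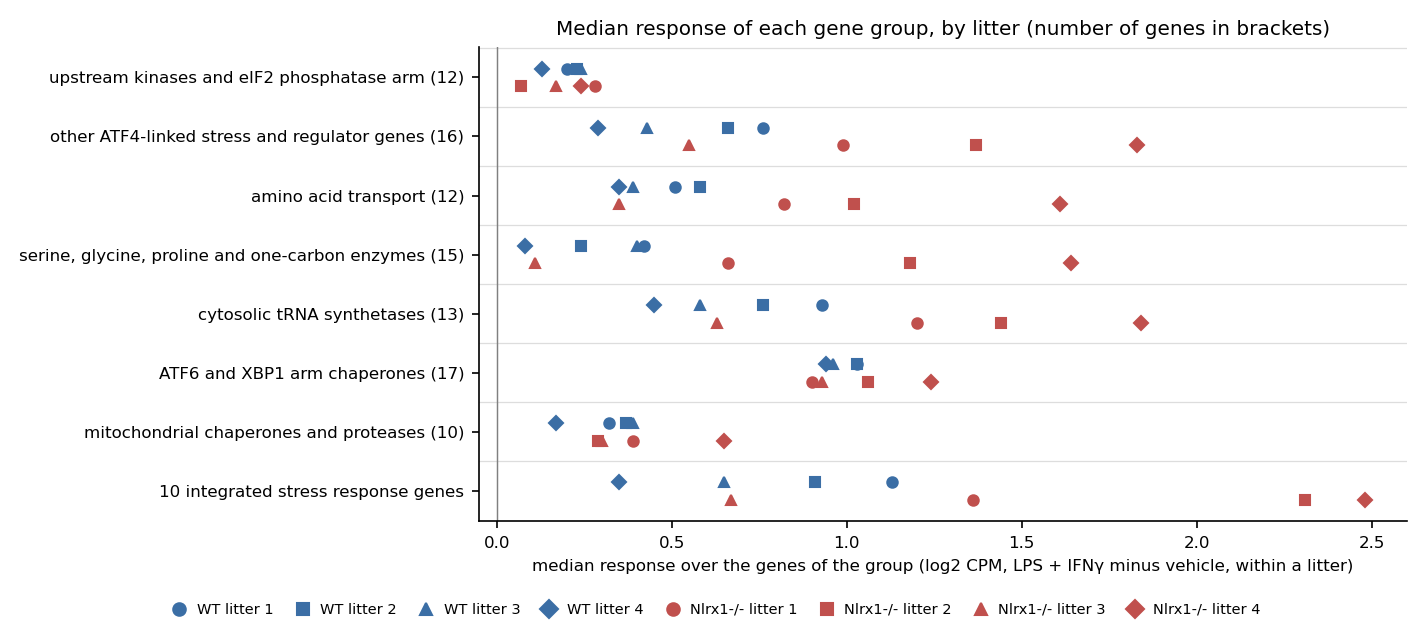
Median response to LPS + IFNγ within each litter (x axis, log2 CPM) over the genes of each list, with WT litters in blue and *Nlrx1*-/- litters in red. For the chaperones all litters lie between 0.90 and 1.24, whereas for the tRNA synthetases and the 10 integrated stress response genes *Nlrx1*-/- litters 1, 2 and 4 lie above all WT litters and litter 3 lies among them.

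The genes with the profile most like that of *Atf4* were found by the root mean square difference of log2 CPM, each gene centred on its mean of the 16 libraries, among 12600 genes with a mean of at least 1 log2 CPM. The nearest 5 outside the 10 members were *Cars* (0.167 log2 units), *Mars1* (0.188), *Gars* (0.197), *Fzd1* (0.204) and *Ifrd1* (0.209). *Cars*, *Mars1* and *Gars* encode the cysteine, methionine and glycine tRNA synthetases, *Fzd1* encodes a Wnt receptor and *Ifrd1* a transcriptional regulator. *Cars*, for example, had group means of 5.00, 5.62, 5.30 and 6.71 log2 CPM in WT vehicle, WT LPS + IFNγ, *Nlrx1*-/- vehicle and *Nlrx1*-/- LPS + IFNγ, against 6.43, 7.20, 6.71 and 8.19 for *Atf4*. Of the members, *Sesn2* (0.233), *Atf5* (0.280) and *Ddit3* (0.359) were nearest to *Atf4*, and *Atf3* (0.972) was the farthest of those compared. *Trib3* had a mean below the minimum.

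**Figure D5:**
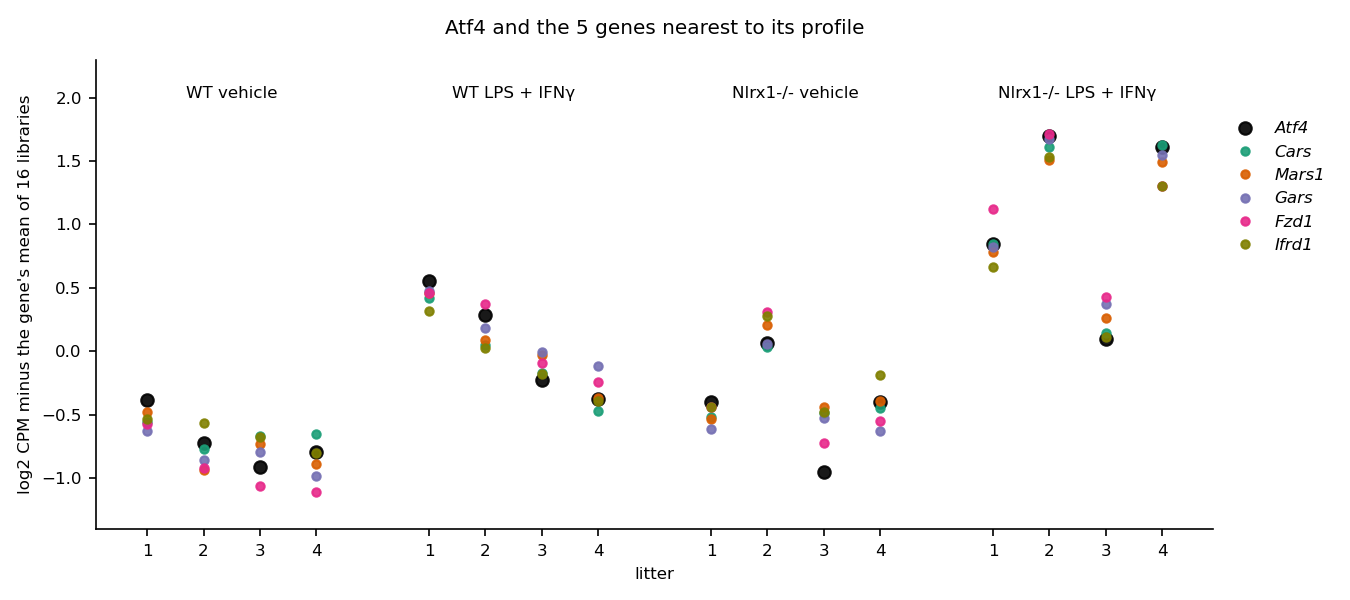
Log2 CPM minus the mean of 16 libraries (y axis) of *Atf4* (black) and the 5 genes nearest to its profile, in the 4 litters of each group (x axis). The 6 genes are highest in litters 2 and 4 of *Nlrx1*-/- LPS + IFNγ and lower in litter 3 of that group.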

How the data were processed

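Per the labels, RNA was captured by poly-A tails and sequenced from 16 libraries. The authors quantified the reads with Salmon 1.7.0 on GRCm39 RefSeq transcripts and deposited, per transcript, the expected count and the TPM. The authors' gene table of CPM, a signal divided by TMM-adjusted library sizes, and its log2 values come from limma-voom 3.58.1 on length-scaled counts. Depth was 27259420 to 43752903 read pairs.

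Here expected counts were summed per gene over 106440 of 129698 transcripts, those paired with a symbol, rounded, and tested in R 4.3.3 with the quasi-likelihood method of edgeR 4.0.16, using TMM, offsets for length and a minimum count of 10. Benjamini-Hochberg adjustment covered all 16066 genes, with a threshold of 0.05. Responses and the interaction had litter terms within genotype, and genotypes were compared over the 4 conditions without them. The genotype comparisons thus used a spread per gene shared by all 4 groups, although the groups differed in spread. The design text states that a replicate's wells share the same mice. After centring on the group means, the deviations of the wells of a litter correlated at 0.09 to 0.37 across genes (Pearson r, median 0.24). Wells of different litters of a genotype correlated at -0.38 to 0.17 (median -0.05), so the ranges overlapped.

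The fits were tested on simulated data. Levels and litter responses are deposited log2 CPM and TPM means are per transcript length. Alternatives used DESeq2 1.42.0 and limma 3.58.1, and tables and plots matplotlib 3.10.9, pandas 2.3.3 and numpy 2.4.6 in Python 3.11.15. Named genes are the 10 members, *Nlrx1*, for each list up to 3 called genes per direction with the largest change or, without calls, that with the smallest p, and the 5 genes nearest to *Atf4*; examples of these are given. The members and lists were chosen with earlier results of these data known.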

Additional observations from a re-analysis of the deposited data

Results flagged for a closer look

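Of 60 sets of 4 values, 10 genes in 4 groups and 2 sets of litter responses, 1 held a value far from the others by Dixon's test. It was the response of *Trib3* in *Nlrx1*-/- litter 3, at 1.80 log2 units, whereas the other *Nlrx1*-/- litters were at 4.66, 4.99 and 4.84 (gap over range 0.894). Chance gives about 1 in 20 such flags, so 1 of 60 is below that rate. The part of the litter's fibroblast marker level in this value was not tested.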

How the results depend on the processing

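The limits of these results lie in the litters. With 1 litter left out in turn, the number of members called higher ranged from 3 to 6 in the WT response (3 without WT litter 1), from 8 to 10 in the *Nlrx1*-/- response, from 0 to 6 in the difference between the responses (6 without *Nlrx1*-/- litter 3) and from 0 to 8 under LPS + IFNγ, and it was 0 in vehicle. All genes called higher under LPS + IFNγ numbered 426 with all litters and from 0 to 1499 over the alternatives run. The difference between the responses gave from 0 to 125 genes higher and from 0 to 197 lower, and vehicle from 0 to 590 and from 0 to 720.

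By method, the WT response called 3 members with no replicate block in place of 5 with the litters paired, and the difference between the responses called 2 in DESeq2 in place of 0. Under LPS + IFNγ, where 6 members were called, limma-voom called 1, and 4 with the litter correlation estimated. A fit of the 8 libraries of that treatment alone called 0, and a threshold of 0.01 called 0. Leaving out *Nlrx1*-/- litters 2 and 4, chosen after the data were seen, called 0. All genes called higher there also numbered as few as 0 among the alternatives, so a count of 0 does not set the members apart. A replicate block on the shared numbers of WT and *Nlrx1*-/- litters, which are not stated to be paired, called 7 there and 1014 of all genes. The libraries of the same number had a correlation between -0.10 and 0.19 in each treatment.

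Of 930 member values under an alternative, 831 kept sign and call, 63 lost the call, 20 gained it and 16 changed sign. The sign changes were, for *Atf3*, in the difference between the responses from -0.28 to -0.12 when *Nlrx1*-/- litter 4 or 2 was left out and -1.09 without both, in vehicle 0.14 without WT litter 1, 0.09 without *Nlrx1*-/- litter 4 and 0.38 without litters 2 and 4, and under LPS + IFNγ -0.06 in limma-voom, -0.01 in limma on the deposited log2 CPM, -0.07 with the litter correlation estimated, -0.18 without *Nlrx1*-/- litter 2 and -0.60 without litters 2 and 4. With any 1 litter left out, these *Atf3* values ranged from -0.28 to 0.91, from -0.74 to 0.14 and from -0.18 to 0.42. Without litters 2 and 4, *Chac1* changed to -0.10 in vehicle, *Psat1* to -0.17 in the *Nlrx1*-/- response, and *Ppp1r15a* to -0.33 in that response, -0.13 in the difference between the responses and -0.22 under LPS + IFNγ. The cause of these changes was not tested.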
